A study of Mus musculus with 22 samples.

Results

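Oxidative phosphorylation is described here through the transcripts of its protein complexes in mouse haematopoietic stem cells (HSCs). The genes were chosen by name alone: complex I subunits (Nduf with a letter a, b, c, s or v and a number), complex II (Sdha to Sdhd), complex III (Uqcr), complex IV (Cox4 to Cox8), complex V (Atp5) and every gene of the mitochondrial genome in the table. Assembly factors named Ndufaf and pseudogenes were left out. This gave 88 of the 13594 genes listed, 79 of them nuclear and 9 mitochondrial. The nuclear genes comprise 35 of complex I, 4 of complex II, 8 of complex III, 15 of complex IV and 17 of complex V. The mitochondrial genes comprise mt-Nd1, mt-Nd2, mt-Nd4, mt-Nd5 and mt-Nd6 of complex I, mt-Cytb of complex III, mt-Co1 of complex IV and the transfer RNAs mt-Tc and mt-Tp. The mitochondrial genome holds 13 protein genes, of which 7 are among the genes listed, and the other 6 were not analysed here. Ndufa4 was counted with complex IV, where its protein has been placed.

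RNA was sequenced from HSCs sorted by the KSL gate (Kit and Sca-1 present, lineage markers absent) that carried CD150 and lacked CD48. The mice were Cd53 knockouts (KO) and wild-type (WT) littermates given saline or 7 days of granulocyte colony-stimulating factor (G-CSF), a cytokine that drives granulocyte production and releases stem cells from the marrow. Bone marrow (BM) after saline gave 4 WT and 3 KO libraries, BM after G-CSF 3 WT and 4 KO libraries, and spleen after G-CSF 4 WT and 4 KO libraries, 22 in all. There was no spleen group after saline, so spleen HSCs after G-CSF were set against BM HSCs after saline, where treatment and tissue change together and cannot be told apart, and against BM HSCs after G-CSF. The labels do not say whether BM and spleen libraries came from the same animals or whether cells of several animals were pooled, so p-values measure only the spread between these libraries.

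The respiratory chain passes electrons from NADH (complex I) or succinate (complex II) through ubiquinone, complex III and cytochrome c to oxygen at complex IV. Complexes I, III and IV pump protons across the inner mitochondrial membrane, and complex V (ATP synthase) uses the return flow to make ATP. Complexes I, III, IV and V each include proteins of the mitochondrial genome. Complex II is wholly nuclear, and it also serves in the tricarboxylic acid (TCA) cycle. Quiescent HSCs in the marrow are known for low respiration and a reliance on glycolysis, and respiration increases when they become active.

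Many nuclear genes of the chain are known to be driven by the factors NRF1, NRF2 (GABP, of the ETS family) and YY1, which bind close to the start of transcription. Windows from 250 bases before to 50 bases after the start, from RefSeq on build GRCm38.p6, were found by symbol for 64 of the 79 nuclear genes. Letters were searched on both strands: GCGCANGCG for NRF1, CCGGAAG for ETS factors and AAGATGGCG for YY1, none of which contains another. The NRF1 letters stood in 20 of the 64 windows (31.2%) and in 7.03% of 27025 genes with a window. The ETS letters stood in 16 of 64 (25%) and 9.93% of genes, and the YY1 letters in 7 of 64 (10.9%) and 1.64% of genes. At least 1 of them stood in 35 of 64 members (54.7%) and in 16.5% of the 27025 genes with a window. Those genes were not limited to the genes tested here, and a background of tested genes was not counted. Below are the windows of 3 genes that the results turn on, Sdhb and Ndufs8 (higher in spleen HSCs of WT mice) and Cox5a (lower there). They were chosen because they passed the test with and without removal of the transcript length and GC trends described below. Their RefSeq start also lies within 100 bases of the GENCODE start. Capitals mark the ETS letters, read on either strand, found once in Sdhb and once in Ndufs8. None of the searched letters stands in the Cox5a window, which says nothing on whether the factors act there.
Sdhb promoter, chr4:140961021-140961320, plus strand: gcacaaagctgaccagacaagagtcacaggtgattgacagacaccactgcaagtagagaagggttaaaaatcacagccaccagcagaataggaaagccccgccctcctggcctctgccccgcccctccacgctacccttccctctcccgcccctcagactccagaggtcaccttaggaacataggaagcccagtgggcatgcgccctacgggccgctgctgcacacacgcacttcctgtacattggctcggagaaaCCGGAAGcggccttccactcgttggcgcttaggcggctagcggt
Ndufs8 promoter, chr19:3912725-3913024, minus strand: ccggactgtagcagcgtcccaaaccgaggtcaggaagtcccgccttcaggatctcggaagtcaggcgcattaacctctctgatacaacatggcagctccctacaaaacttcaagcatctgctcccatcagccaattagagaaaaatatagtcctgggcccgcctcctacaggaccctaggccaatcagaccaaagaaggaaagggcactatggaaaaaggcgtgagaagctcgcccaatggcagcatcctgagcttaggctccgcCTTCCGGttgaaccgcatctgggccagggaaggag
Cox5a promoter, chr9:57520982-57521281, plus strand: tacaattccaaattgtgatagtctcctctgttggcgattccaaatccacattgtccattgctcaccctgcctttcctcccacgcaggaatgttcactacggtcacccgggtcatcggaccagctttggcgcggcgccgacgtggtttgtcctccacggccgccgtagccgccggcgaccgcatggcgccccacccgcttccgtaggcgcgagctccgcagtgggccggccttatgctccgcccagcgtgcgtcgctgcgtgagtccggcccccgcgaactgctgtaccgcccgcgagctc

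The deposited values are log2 CPM, reads scaled by an effective library size, and the libraries held 22578088 to 31268856 reads in the listed genes. The 79 nuclear genes took 1.16 to 1.52% of the reads of a library and the 7 mitochondrial protein genes 0.441 to 0.714%. Cd53, the targeted gene, lay at 2.02 to 3.61 log2 CPM in KO and 5.75 to 6.18 in WT libraries of saline BM, at 6.06 to 6.59 and 9.57 to 9.83 in BM after G-CSF, and at 6.18 to 6.399 and 9.505 to 9.77 in spleen. All 7 gate and HSC markers were listed: Kit, Ly6a, Slamf1, Cd48, Procr, Mecom and Hlf. Their sum includes Cd48, whose protein the gate required to be absent, so it does not measure HSC identity alone. The sum was 2292 to 2689 CPM in WT saline BM, 2108 to 2368 in WT G-CSF BM and 1773 to 2222 in WT spleen. Every WT spleen library stood lower than every WT saline BM library. In the KO groups the sum was 2225 to 2786, 1957 to 2454 and 1942 to 2529. Of 6 macrophage markers 5 were listed, and their summed level was 34.8 to 49.7 CPM in WT saline BM, 111 to 130 in WT G-CSF BM and 214 to 244 in WT spleen, against 48.1 to 56.5, 102 to 141 and 190 to 218 in the KO groups. That sum moved with Cd68, higher by 2.83 ± 0.11 log2 units (SE) in WT spleen than in WT saline BM (limma adjusted p = 1.43e-14), while C1qb fell by 4.65 (SE 0.79, adjusted p = 0.000244). Summed levels of 3 of 8 erythroid markers were 17.02 to 42.8 CPM in WT saline BM, 54.8 to 96.5 in WT G-CSF BM and 73.6 to 96.4 in WT spleen, against 22 to 39.2, 45.1 to 62.1 and 61.3 to 104 in the KO groups. For 2 of 6 T and NK cell markers listed the sums were 18.1 to 35.2 CPM in WT saline BM and 71.8 to 85.9 in WT spleen (KO 23.4 to 32.2 and 64.5 to 76.8). For 4 of 5 megakaryocyte markers they were 148 to 193 and 77.9 to 108 (KO 161 to 220.0 and 92.5 to 111). Both sums stood apart between spleen and saline BM in each genotype. For 6 of 7 neutrophil markers the sums were 6.13 to 186 CPM in WT saline BM. They were 8.01 to 24.9 in WT G-CSF BM and 3.45 to 15.5 in WT spleen. In the KO groups they were 5.93 to 9.84, 10.03 to 24.3 and 3.63 to 29.6. Sums of 2 of 5 B cell markers and of 2 of 5 stroma and endothelium markers overlapped between spleen and saline BM in each genotype. The part of these markers in the results below was not tested.

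Members were measured at very different levels, from a mean of -0.25 log2 CPM (Cox7a1, the heart and muscle isoform) to 10.99 (mt-Cytb), and 73 of 88 had a mean above 5. Per kilobase of transcript, mt-Cytb had the highest level among complex III genes (10.79 log2 CPM per kb), mt-Nd1 among complex I (10.14) and mt-Co1, the catalytic subunit of complex IV, among complex IV genes (9.84). Among nuclear genes the highest levels per kb in each complex were those of Cox4i1 (9.57), Atp5a1, a catalytic-head subunit of ATP synthase (8.83), Uqcrc1 (8.61), Ndufa7 (8.31) and Sdha, the flavoprotein of complex II (8.31). Of the isoforms of the c subunit of ATP synthase, Atp5g3 stood at 7.42 log2 CPM per kb, Atp5g2 at 1.49 and Atp5g1 at 0.42. Cox6b1 stood at 7.92 and Cox6b2, best known from testis, at 5.75. Cox7a2 and Cox7a2l stood at 7.10 and 7.39 and Cox7a1 at 0.65. Cox6a1, Cox8a and Ndufa4 were the only listed forms of their subunits. There were 9 members with a mean below 3 log2 CPM: Cox7a1, mt-Tc, Atp5l, mt-Tp, Atp5g2, Cox5a, Cox7c, Ndufb4 and Atp5g1. Of the members, 8 have named pseudogenes in the annotation, among them Atp5k (4), Atp5l (2), Uqcrh (2) and Cox7c (1), and reads that the authors' counting could have given to copies or discarded make their levels uncertain. Whether reads were assigned by strand is not given in the sources used here, so mt-Nd6, which lies on the opposite strand to the other mitochondrial protein genes, cannot be told apart from antisense RNA.

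Within a group, most of the members moved together from library to library. Over the 22 libraries, after subtraction of the group means, the correlation of a member with the mean of the other members was above 0.5 for 67 of 88 and had a median of 0.69, as a description of libraries that share their depth and scaling. Ndufs1, the largest iron-sulfur subunit of complex I, went against the rest (-0.64), as did Sdha (-0.33). The KO saline BM replicate 3 had 85 of 88 members above its group's mean, by a median of 0.19 log2 units. The KO spleen replicate 4 had 6 of 88 above, with a median of -0.24, and the WT spleen replicate 1 had 7 above, with a median of -0.16. Counts and medians below are therefore given also without one of these libraries where that turned their sign or moved them by over 1.5 times.

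The plot of mean levels by complex shows overlapping libraries for most pairs of groups. The WT spleen libraries lay above the WT saline BM libraries without overlap for the nuclear genes of complex I (6.58 to 6.83 against 6.39 to 6.57 log2 CPM) and complex II (8.56 to 8.73 against 8.29 to 8.45), and overlapped them for complexes III, IV and V. The mean over the 79 nuclear genes was 6.35 ± 0.08 log2 CPM in WT saline BM (SD, n = 4), 6.48 ± 0.06 in WT G-CSF BM (n = 3) and 6.55 ± 0.12 in WT spleen (n = 4). The KO groups stood at 6.42 ± 0.18 (n = 3), 6.44 ± 0.08 (n = 4) and 6.39 ± 0.17 (n = 4). The mean over the 7 mitochondrial protein genes ran from 8.89 ± 0.25 in KO G-CSF BM to 9.17 ± 0.18 in WT spleen.

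**Figure D1:**
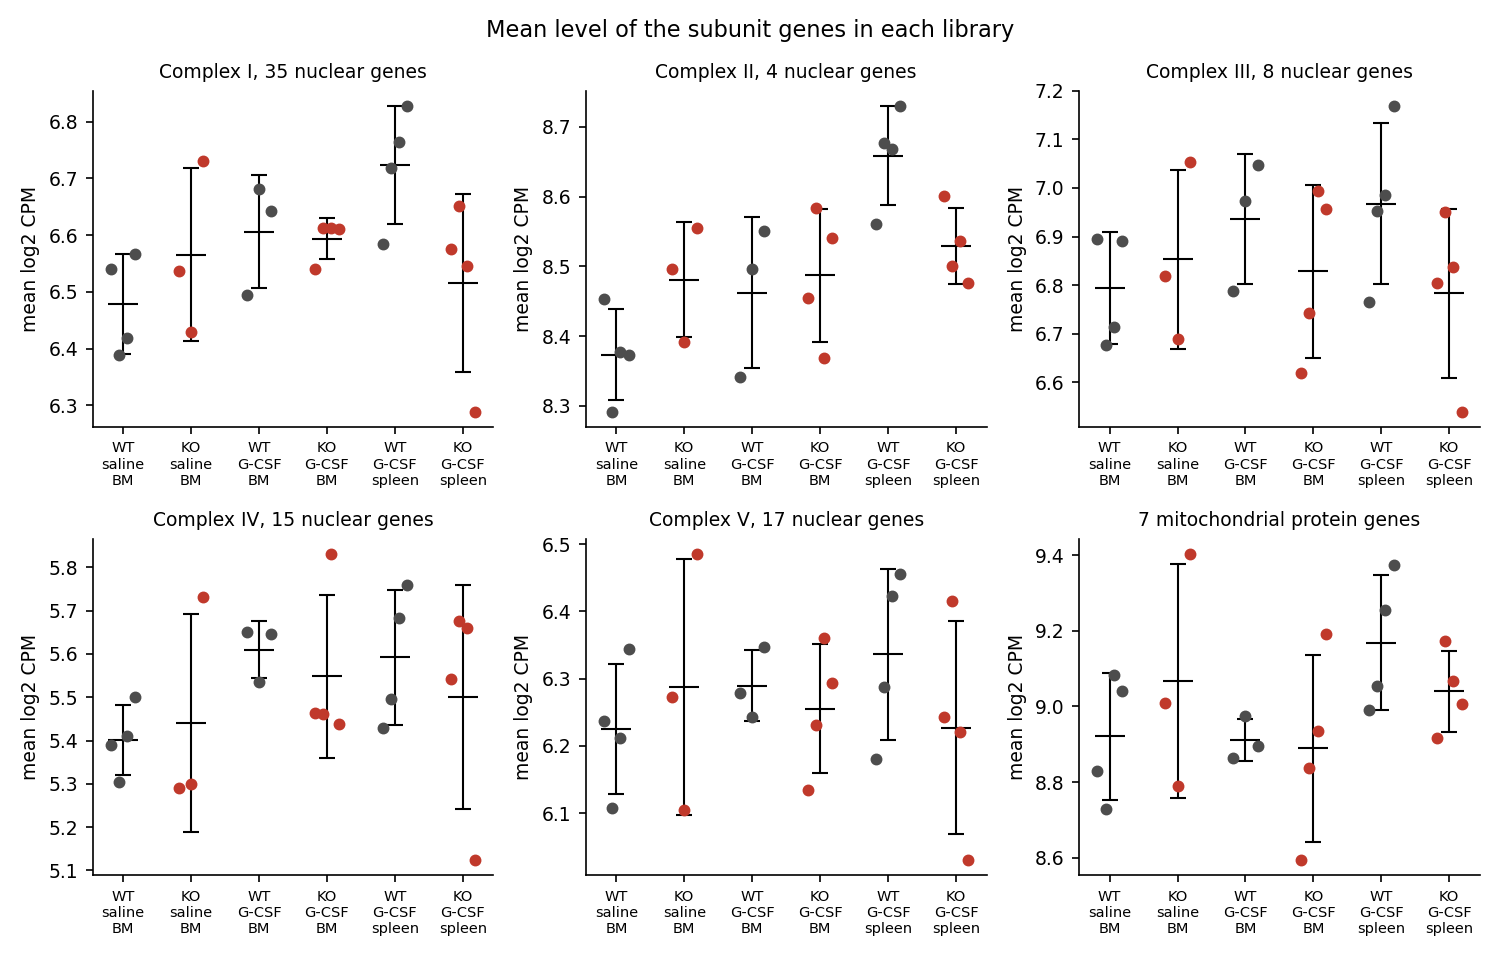
Mean log2 CPM of the nuclear genes of each complex and of the 7 mitochondrial protein genes in each library, in 6 groups by genotype, treatment and tissue. Points are libraries (grey WT, red KO), bars are the group mean and SD, and the vertical axes do not start at 0. The WT spleen libraries reach the highest group mean for complexes I, II, III and V and stand clear of the WT saline BM libraries for complexes I and II.

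The first comparison asks how spleen HSCs after G-CSF differ from resting marrow HSCs in WT mice. In it 26 of the 88 genes rose and 1 fell (limma adjusted p under 0.05), which is 30.7% against 21.1% of all genes tested, and 29.5% against 11.7% in the upward direction (9.4% of all genes fell). The log2 fold change was above 0 for 75 of 88, with a median of 0.25 over the members and -0.04 over all genes. Rising genes were 13 of 40 in complex I, 2 of 4 in complex II, 2 of 9 in complex III, 4 of 16 in complex IV and 4 of 17 in complex V, beside mt-Tp. By genome, 22 of 79 nuclear and 3 of 7 mitochondrial protein genes rose, with medians of 0.25 and 0.28. All 4 WT spleen libraries lay above all 4 WT saline BM libraries for 31 of 88 members, against 14.5% of all genes. In bulk RNA, a change in the number of cells with a high level and a change in every cell cannot be told apart.

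Sdhb (chr4:140961203-140979193, plus strand, mm10) encodes the iron-sulfur subunit of complex II. It lay at 8.18, 8.004, 7.996 and 8.17 log2 CPM in WT saline BM and 8.49, 8.54, 8.53 and 8.61 in WT spleen, so the groups did not overlap. It rose by 0.46 ± 0.08 log2 units (SE, limma adjusted p = 0.000489). Atp5f1 (chr3:105942698-105960099), the b subunit of the ATP synthase stalk, lay at 8.34, 8.20, 8.27 and 8.37 and 8.61, 8.67, 8.78 and 8.86, again without overlap, and rose by 0.44 ± 0.08 (adjusted p = 0.00041). Uqcrc2 (chr7:120635176-120659524), a core protein of complex III, lay at 8.30, 8.12, 8.14 and 8.31 and 8.52, 8.56, 8.61 and 8.67 and rose by 0.37 ± 0.07 (adjusted p = 0.000978). Every spleen library stood above every marrow library for it as well. Ndufs8 (chr19:3908863-3912774), an iron-sulfur core subunit of complex I, lay at 7.75, 7.65, 7.67 and 7.73 and 8.04, 8.16, 8.15 and 8.17 and rose by 0.43 ± 0.09 (adjusted p = 0.00232). Ndufa1, a small membrane subunit of complex I, lay at 5.64, 5.41, 5.44 and 5.55 and 5.85, 6.08, 6.20 and 6.22 and rose by 0.58 ± 0.13 (adjusted p = 0.00235), and Ndufa9, a subunit near the ubiquinone site, rose by 0.31 ± 0.08 (adjusted p = 0.00685). These 6 genes passed in each of the 8 fits that left out 1 library of either group, as did Cox4i2, mt-Cytb and Cox7b. The number of members past the threshold was less stable, at 10 without the WT saline BM replicate 2, 13 without its replicate 3, 15 without the WT spleen replicate 3 and 11 without its replicate 4, all higher in spleen.

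Of the mitochondrial genes, mt-Cytb (chrM:14145-15288), the catalytic cytochrome b of complex III, lay at 10.80, 10.73, 11.06 and 10.86 log2 CPM in WT saline BM and 11.11, 11.17, 11.39 and 11.48 in WT spleen, without overlap, and rose by 0.43 ± 0.11 (limma adjusted p = 0.00979). mt-Co1 lay at 10.31, 10.21, 10.45 and 10.47 and 10.69, 10.62, 10.66 and 10.78 and rose by 0.33 ± 0.10 (adjusted p = 0.0217). mt-Nd1 lay at 9.84, 9.75, 9.90 and 10.09 and 10.12, 10.13, 10.36 and 10.4999 and rose by 0.38 ± 0.13 (adjusted p = 0.0379). Each of these stood higher in every spleen library, and of the 8 fits that left out 1 library, mt-Co1 lost its call in 2 and mt-Nd1 in 5. The other 4, all core subunits of complex I in the membrane arm, did not pass. mt-Nd4 lay at 7.97, 7.93, 8.27 and 8.18 and 8.21, 8.33, 8.38 and 8.57, a difference of 0.28 ± 0.11. mt-Nd2 lay at 7.18, 7.11, 7.64 and 7.60 and 7.33, 7.55, 7.70 and 7.84, and the groups overlapped. mt-Nd5 lay at 8.68, 8.59, 8.94 and 8.79 and 8.64, 8.67, 8.97 and 9.04, and mt-Nd6 at 7.03, 6.79, 7.31 and 7.29 and 6.84, 6.92, 7.33 and 7.41, with overlapping groups and differences of 0.08 ± 0.16 and 0.02 ± 0.20. The mean of the 7 genes stood above that of the nuclear genes by 2.57 ± 0.15 log2 units in WT saline BM (SD, n = 4) and 2.62 ± 0.07 in WT spleen (n = 4), so the balance of the genomes moved by less than the spread between libraries.

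Cox5a, a nuclear subunit of complex IV, was the only member past the threshold in the other direction and fell by 1.75 log2 units (SE 0.61, limma adjusted p = 0.0441). It lay at 0.73, 2.68, 2.99 and 3.87 log2 CPM in WT saline BM and 0.49, 0.35, 1.22 and 1.19 in WT spleen. The marrow replicate 1 fell among the spleen libraries, so the groups overlapped, and the call was lost in 7 of 8 fits that left out 1 library. Atp5b, the catalytic beta subunit of ATP synthase, lay at 8.77, 9.02, 9.30 and 9.19 and 8.51, 8.75, 8.97 and 9.001, a difference of -0.27 ± 0.15 that did not pass (adjusted p = 0.232).

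These counts changed when trends of the values with transcript length and GC content were removed. The members are short as a class, so the removal also takes out any change that short genes share. Whether the trends reflect measurement or biology was not tested. The members' median transcript was 0.892 kb long, against 2.96 kb for all genes, with a GC content of 50.2% and 49.8%. Once the smooth trends of the values with length and GC were subtracted from each library, 6 members remained higher in WT spleen than in WT saline BM (Cox4i2, Sdhb, Ndufs8, Atp5f1, Uqcrc2 and Ndufa13) and 1 lower (Cox5a), and the members' median was 0.08. On that scale 1327 of all 13586 genes were called higher and 859 lower, with a median of -0.02. The members' share was thus below that of all genes in both directions. Sdhb was then higher by 0.37 (limma adjusted p = 0.00399) and Ndufs8 by 0.32 (adjusted p = 0.00927). None of the mitochondrial genes passed, with mt-Cytb at 0.21 (adjusted p = 0.131). Scaling to the total of the listed genes moved the median of all genes to -0.14 and that of the members to 0.14. There 8 members were called higher and 1 lower, against 1026 and 2109 of all 13586 genes. The plot of medians shows the members' median with and without the length and GC trends for each comparison.

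**Figure D2:**
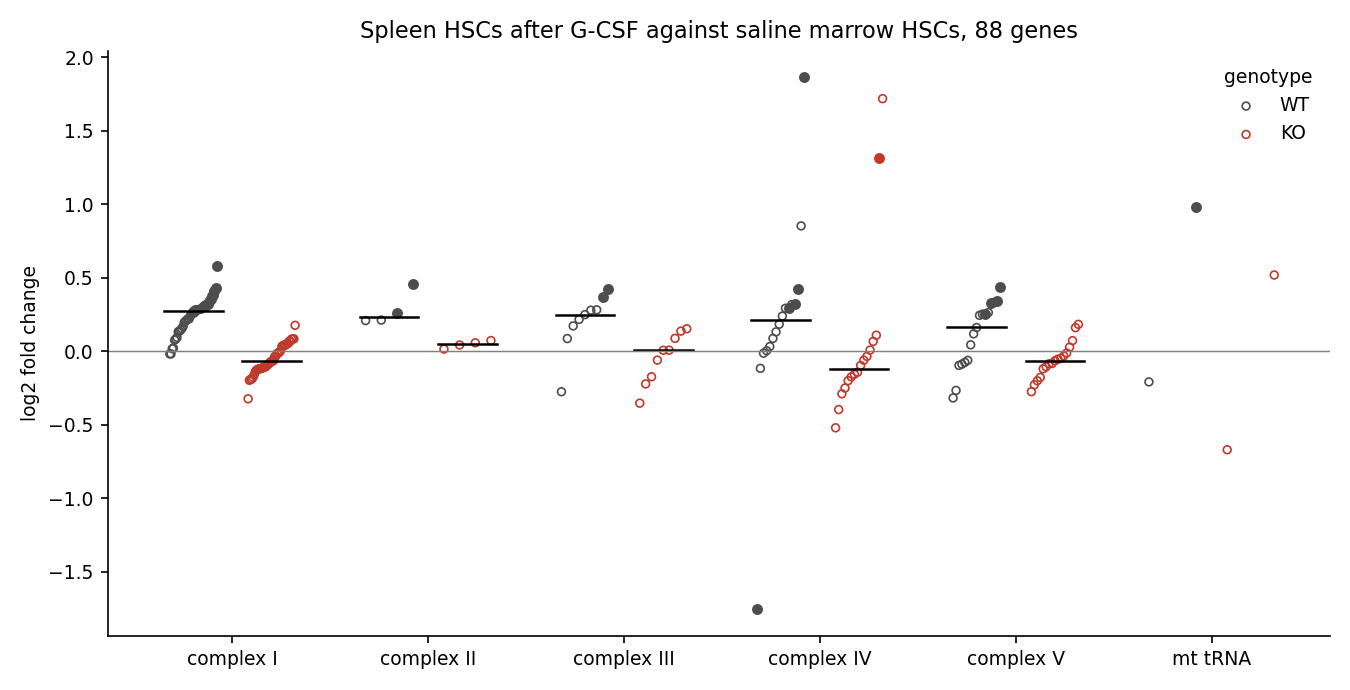
Log2 fold changes of the 88 genes in spleen HSCs after G-CSF against saline marrow HSCs, by complex, for WT (grey) and KO (red) mice. Each point is a gene, filled where the limma adjusted p was under 0.05, and bars are medians. In WT, 26 points above 0 and 1 below are filled, and in KO 1.

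**Figure D3:**
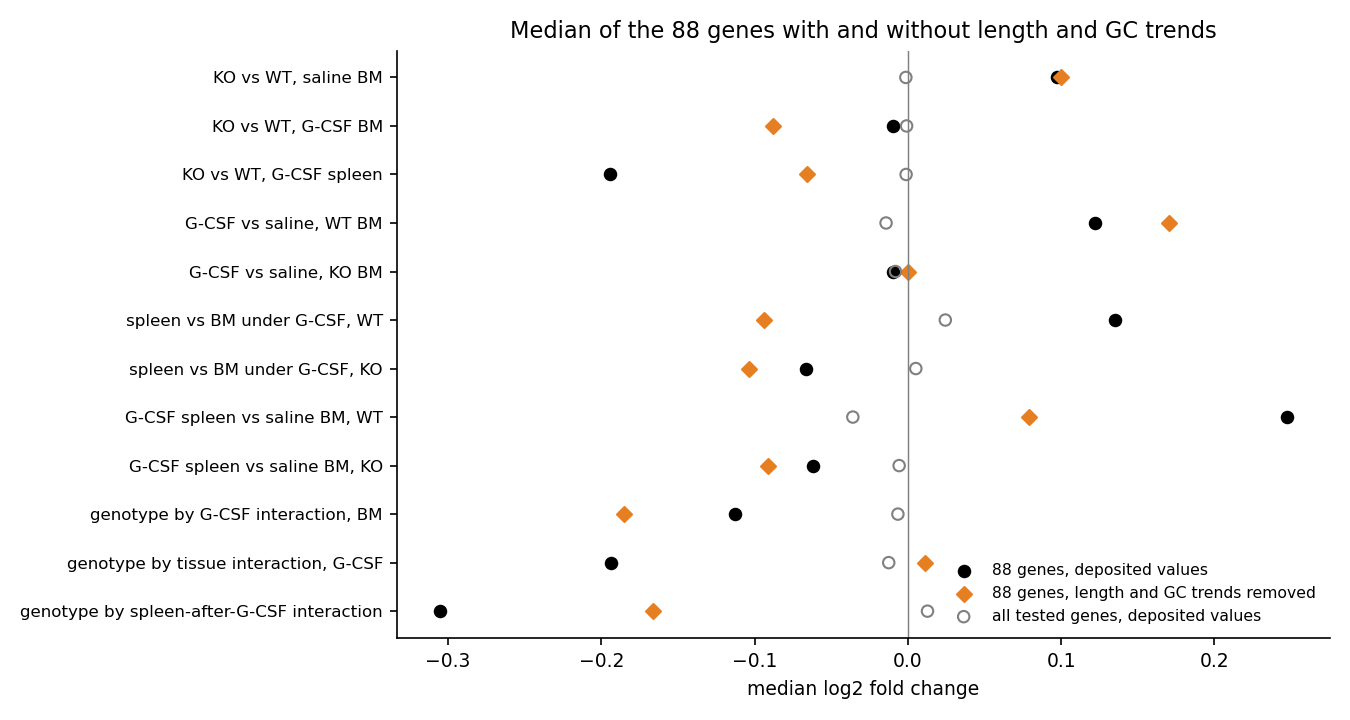
Median log2 fold change of the 88 genes in each comparison as deposited (black circles) and after removal of the trends with transcript length and GC content (orange diamonds). Open circles are the median of all genes tested, on the deposited values only. In WT spleen against saline BM the members' median goes from 0.25 to 0.08, and in WT spleen against G-CSF BM from 0.14 to -0.09.

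In WT spleen against saline BM, Cox4i2 (chr2:152754173-152765037, mm10) had the smallest p of all members and the largest rise. It encodes the lung-type isoform of subunit 4 of complex IV, known to be induced at low oxygen, in place of the common Cox4i1. It lay at 3.13, 2.30, 3.96 and 2.73 log2 CPM in WT saline BM, 3.91, 3.22 and 3.89 in WT G-CSF BM and 4.98, 4.03, 5.20 and 5.36 in WT spleen. KO libraries stood at 4.17, 3.51 and 4.01 in saline BM, 4.14, 4.27, 4.48 and 4.05 in G-CSF BM and 5.22, 5.49, 5.42 and 4.73 in spleen. The spleen libraries were above the saline BM libraries of the same genotype in every case. The rise over saline BM was 1.86 ± 0.30 in WT (limma adjusted p = 0.000109) and 1.32 ± 0.32 in KO (adjusted p = 0.0125), and 1 of 7 fits that left out a library lost the KO call, that without the KO saline BM replicate 2 (adjusted p = 0.0807). Against G-CSF BM it rose by 1.22 ± 0.32 in WT (adjusted p = 0.0155), and in KO the difference was 0.98 ± 0.30 (adjusted p = 0.13). With length and GC trends removed the rises over saline BM were 1.79 and 1.35. Cox4i1 lay at 9.001 to 9.35 log2 CPM in WT saline BM and 9.06 to 9.40 in WT spleen.

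Per kilobase of transcript, Cox4i2 made up 1.41, 0.926, 2.86 and 0.98% of the Cox4i1 and Cox4i2 RNA in the libraries of WT saline BM and 5.44, 2.5, 5.16 and 5.57% in WT spleen. In KO the shares were 2.98, 1.99 and 2.07% and 6.49, 6.86, 7.11 and 5.77%. The WT spleen replicate 2 stood below the WT saline BM replicate 3, and all the KO spleen libraries stood above all the KO saline BM libraries. The group means were 1.54% ± 0.90 (SD, n = 4), 2.06% ± 0.56 (n = 3) and 4.67% ± 1.46 (n = 4) for WT and 2.35% ± 0.55 (n = 3), 3.07% ± 0.39 (n = 4) and 6.56% ± 0.58 (n = 4) for KO, in saline BM, G-CSF BM and spleen. Over 9 two-sided exact permutation tests, the difference in WT between spleen and saline BM was 3.13 percentage points (exact p = 0.0571) and in KO 4.21 (exact p = 0.0571, the smallest that 4 against 3 allow), with a Benjamini-Hochberg adjusted p of 0.129 for both. Between KO and WT in spleen the difference was 1.89 percentage points (exact p = 0.0286, the smallest that 4 against 4 allow, adjusted p = 0.129). Cox6b2 made up 17.5% ± 1.1 of the Cox6b1 and Cox6b2 RNA in WT saline BM (n = 4) and 17.03% ± 1.2 in WT spleen (n = 4), within the spread between libraries.

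**Figure D4:**
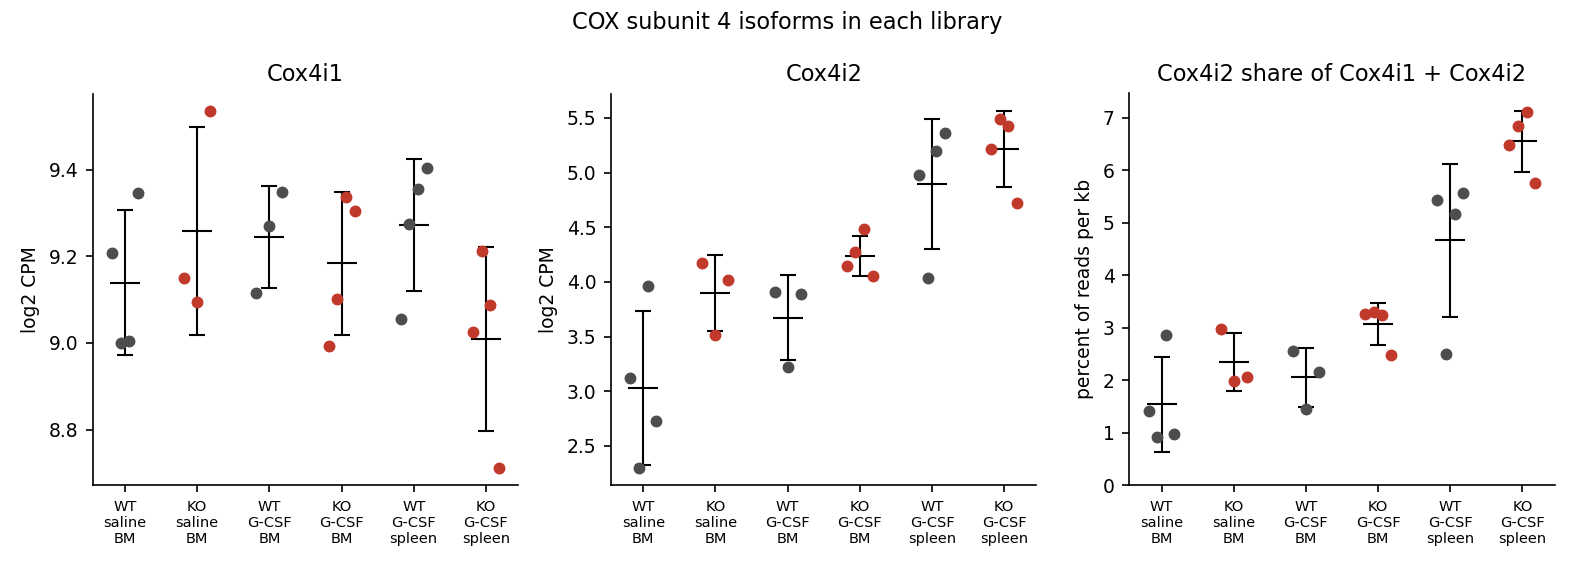
Levels of Cox4i1 and Cox4i2 (log2 CPM) and the share of Cox4i2 in the sum of both (percent of reads per kilobase) in each library of the 6 groups. Points are libraries (grey WT, red KO), bars the group mean and SD. The share is 0.926 to 2.86% in WT saline BM and 5.77 to 7.11% in KO spleen.

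In KO mice, spleen HSCs were compared with saline BM HSCs in the same way. Cox4i2 was the 1 member of 88 that passed (1.14% of the members, against 6.28% of all genes, 4.19% higher and 2.09% lower), and the members' median was -0.06, beside -0.01 over all genes. Its sign turned, to 0.05 without the KO saline BM replicate 3 and to 0.02 without the KO spleen replicate 4, and it was -0.15 without the KO saline BM replicate 2. Cox7a1, with a mean of -0.25 log2 CPM over the libraries, had the largest difference of the members (1.72) and did not pass. Sdhb lay at 8.27, 8.17 and 8.31 log2 CPM in KO saline BM and 8.43, 8.27, 8.29 and 8.17 in KO spleen, which overlapped, a difference of 0.04 ± 0.09. mt-Cytb lay at 10.91, 10.71 and 11.25 and 11.10, 11.08, 11.15 and 11.12, also overlapping, a difference of 0.15 ± 0.12, and mt-Co1 at 10.38, 10.43 and 10.72 and 10.47, 10.68, 10.56 and 10.37 (0.01 ± 0.11). Scaling to the listed genes and leaving out the KO spleen replicate 1 each gave 1 member higher and 1 lower. With that scaling 500 of 13586 genes were called higher and 328 lower.

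Whether the 2 genotypes differ in that step was tested as an interaction, added after the values were seen. No member of 88 passed, and no gene of 13586 did (0%). Unadjusted, 35 members lay below 0 with p under 0.05 and 0 above it, against 5.37% and 5.04% of all genes, and voom, the other tool run, gave 36 and 0. The median of the interaction was -0.31 log2 units over the members and 0.01 over all genes. The smallest p among members was that of Sdhb, at -0.41 ± 0.12 (limma adjusted p = 0.316), followed by Ndufa7, an accessory subunit of complex I, at -0.57 ± 0.17 (adjusted p = 0.322). In the positive direction stood Cox5a at 1.23 ± 0.90 and Cox7a1 at 0.87 ± 0.76 (adjusted p = 0.679 and 0.75). The median was -0.21 without the KO saline BM replicate 3, with 10 members unadjusted, and -0.23 without the KO spleen replicate 4, with 18. With length and GC trends removed it was -0.17, beside -0.04 over all genes, with 6 members unadjusted. The rise past the threshold in WT and not in KO is thus not shown to differ between the genotypes for any member.

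KO and WT HSCs were compared within each setting. In saline BM no member of 88 passed, against 1 of 13586 genes (0.00736%), which was Cd53, and limma gave 1 member above 0 and 0 below at an unadjusted p under 0.05, as did voom, against 1.74% and 2.02% of all genes. The log2 fold change was above 0 for 76 of 88 members, with a median of 0.10 beside -0.001 over all genes. That median was 0.0017, with 45 members above 0, without the KO saline BM replicate 3. The smallest p was that of Cox4i2, at 0.87 ± 0.32 (limma adjusted p = 1), and next among genes above 0 came Sdhb at 0.16 ± 0.09. Below 0 stood Cox7a1 at -0.69 ± 0.55 and Uqcrq, a small subunit of complex III, at -0.21 ± 0.20.

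In BM after G-CSF no member passed either, against 0.147% of all genes, and 2 members above 0 and 1 below had an unadjusted p under 0.05 by limma and by voom alike, against 7.21% and 5.59% of all genes. The median was -0.01, with 41 of 88 above 0, and ran from -0.07 to 0.04 with 1 library left out. Ndufs1 stood at 0.26 ± 0.10 (limma adjusted p = 0.277) and Atp5s, named as a coupling factor of ATP synthase, at 0.30 ± 0.14. Atp5b lay at 9.47, 9.07 and 9.41 log2 CPM in WT and 8.84, 8.71, 9.40 and 8.62 in KO, a difference of -0.43 ± 0.17 (adjusted p = 0.29). The KO replicate 3 lay among the WT libraries. Without it Atp5b passed (adjusted p = 0.033), as the only member. Atp5g1 stood at -0.45 ± 0.23.

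In spleen after G-CSF no member passed, against 0.0147% of all genes. Unadjusted, limma and voom each gave 35 of 88 members below 0 with p under 0.05 and 0 above it, against 5.62% and 6.15% of all genes. The log2 fold change was below 0 for 77 of 88 members, 39 of 40 in complex I, with a median of -0.19 beside -0.001 over all genes. All KO libraries lay below all WT libraries for 14 members, against 4.87% of all genes, and above for 0, against 3.5%. Atp5j2, the f subunit of ATP synthase, stood at -0.32 ± 0.10 (limma adjusted p = 0.24). Cox6b1 lay at 7.29, 7.44, 7.48 and 7.52 log2 CPM in WT and 7.19, 7.31, 7.09 and 6.81 in KO, a difference of -0.33 ± 0.11 (adjusted p = 0.247). The KO replicate 2 fell within the WT range. Above 0 stood Atp5s at 0.20 ± 0.13 and Cox5a at 0.73 ± 0.61. All 7 mitochondrial protein genes lay below 0, from -0.18 ± 0.13 (mt-Nd1) to -0.02 ± 0.16 (mt-Nd5). Without the KO spleen replicate 4 the members' median was -0.13 and 9 members had an unadjusted p under 0.05. With length and GC trends removed the median was -0.07, beside -0.01 over all genes, and 1 member on each side had one. With weights estimated for each library 4 members passed as lower and 0 as higher, against 102 and 207 of 13586 genes.

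**Figure D5:**
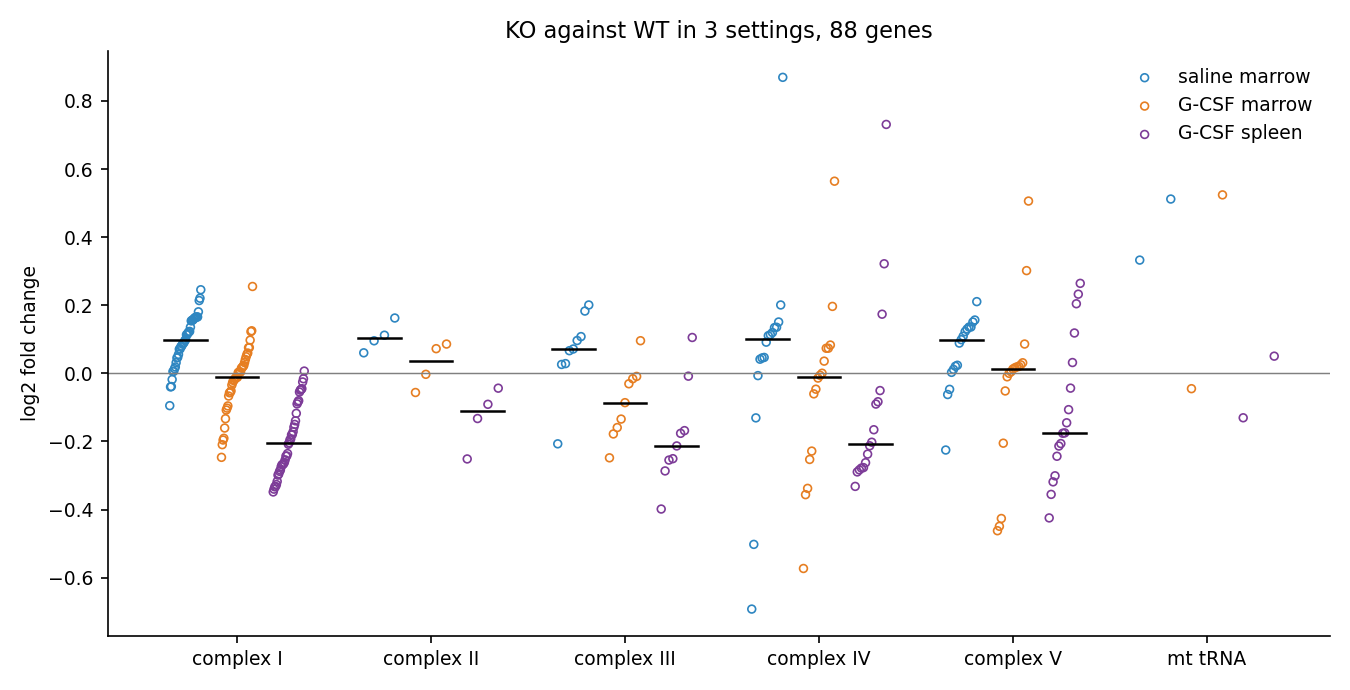
Log2 fold changes of KO against WT for the 88 genes by complex, in saline marrow (blue), G-CSF marrow (orange) and G-CSF spleen (purple). Each point is a gene, bars are medians, and none passed an adjusted p under 0.05. The complex I median is 0.10 in saline marrow, -0.01 in G-CSF marrow and -0.21 in spleen.

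The effect of G-CSF on marrow HSCs was measured in each genotype. In WT, Atp5f1 was the 1 member of 88 that rose (1.14%, against 11.2% of all genes, 5.62% in each direction), from 8.34, 8.20, 8.27 and 8.37 to 8.49, 8.70 and 8.65 log2 CPM, without overlap (0.32 ± 0.08, limma adjusted p = 0.0167). It lost its call without the WT saline BM replicate 2, and without the WT G-CSF BM replicate 2 or 3. The members' median was 0.12 beside -0.01 over all genes, with 70 of 79 nuclear but 2 of 7 mitochondrial protein genes above 0, whose medians were 0.13 and -0.05. With length and GC trends removed 3 members rose, Atp5f1, Ndufa1 and Uqcrc1, against 1134 of 13586 genes higher and 598 lower. In KO no member passed, against 9.87% of all genes, and 2 above 0 and 0 below had an unadjusted p under 0.05 by limma and by voom (12% and 11.9% of all genes). Atp5f1 lay at 8.31, 8.36 and 8.52 and 8.54, 8.70, 8.54 and 8.72 (0.23 ± 0.08, adjusted p = 0.0902). Ndufs1 stood at 0.23 ± 0.10, Atp5g1 at -0.46 ± 0.23 and mt-Nd5 at -0.31 ± 0.17, none of which passed. The interaction of genotype with G-CSF gave 0 members and 0 of all genes (0%), and 0 members at an unadjusted p under 0.05 by limma and by voom, against 4.65% of all genes above 0 and 2.5% below. Its median was -0.11, -0.02 without the KO saline BM replicate 3, and -0.19 without the KO replicate 2 of that group. With length and GC trends removed it was -0.19, beside -0.06 over all genes. The members of smallest p were Ndufa12 at -0.28 ± 0.17, mt-Nd1 at -0.31 ± 0.20, Atp5g2 at 0.73 ± 0.44 and Ndufs1 at 0.21 ± 0.14.

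Spleen and marrow HSCs after G-CSF were compared last, so that the treatment was the same. In WT, 6 members rose and 2 fell (9.09% of 88, against 13.7% of all genes, 6.92% higher and 6.82% lower). mt-Cytb lay at 10.66, 10.90 and 10.78 log2 CPM in WT G-CSF BM and 11.11, 11.17, 11.39 and 11.48 in WT spleen, without overlap, and rose by 0.51 ± 0.12 (limma adjusted p = 0.00914). mt-Co1 lay at 10.30, 10.46 and 10.21 and 10.69, 10.62, 10.66 and 10.78 and rose by 0.36 ± 0.11 (adjusted p = 0.026). Beside Cox4i2, Sdhb rose by 0.32 ± 0.09, Uqcrc2 by 0.25 ± 0.08 and Atp5j2 by 0.33 ± 0.11. Cox5a, at 3.77, 2.66 and 3.19 in marrow and 0.49, 0.35, 1.22 and 1.19 in spleen, stood at -2.40 ± 0.66 (adjusted p = 0.0199), with no overlap. Atp5b, at 9.47, 9.07 and 9.41 and 8.51, 8.75, 8.97 and 9.001, stood at -0.51 ± 0.17 (adjusted p = 0.0426), again with no overlap. Of the 7 fits that left out 1 library of either group, mt-Cytb and Cox4i2 lost their call in 1, Sdhb in 3, mt-Co1, Cox5a and Atp5b in 4, Atp5j2 in 6 and Uqcrc2 in 7. The number past the threshold went down to 1 without the WT G-CSF BM replicate 1 and to 3 without its replicate 3 or the spleen replicate 1 or 2, and was 5 without the spleen replicate 4.

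With length and GC trends removed the members' median in that comparison turned from 0.14 to -0.09, and that of all genes from 0.02 to -0.05. Cox4i2 rose, and 5 members fell: Cox5a, Atp5b, Atp5d, Atp5g3 and Ndufb6. Of all 13586 genes 619 rose and 1073 fell on that scale, so the members' share was the lower in both directions. Cox5a and Atp5b passed as lower on both scales with all libraries in. By contrast, mt-Cytb, mt-Co1, Sdhb, Uqcrc2 and Atp5j2 did not pass with the trends removed. In KO no member passed, against 1.27% of all genes, and 2 above 0 and 1 below had an unadjusted p under 0.05 by limma and by voom (6.52% and 4.86% of all genes). The median was -0.07, and 0.002 without the KO spleen replicate 4. All 7 mitochondrial protein genes lay above 0 (median 0.13) and 62 of 79 nuclear genes below it (median -0.07). mt-Cytb stood at 0.24 ± 0.11 and Ndufb11 at -0.20 ± 0.09. The interaction of genotype with tissue gave 0 members and 0 of all genes (0%), with 1 member above 0 and 13 below at an unadjusted p under 0.05 (voom 1 and 14), against 6.69% and 6.26% of all genes. Its median of -0.19 became 0.01 once length and GC trends were removed, with 0.01 over all genes too. That median was -0.13 without the KO spleen replicate 4, with 2 members above 0 and 5 below unadjusted. The smallest p values of the interaction belonged to Ndufa3 at -0.39 ± 0.14, Ndufa7 at -0.47 ± 0.17, Atp5b at 0.54 ± 0.23 and Atp5d at 0.73 ± 0.36.

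Other genes of mitochondrial energy metabolism were counted from lists written from general knowledge, to be read against the 11.7% of all genes that rose and the 9.4% that fell in WT spleen against saline BM. In WT spleen against saline BM, 8 of 18 genes of the TCA cycle and pyruvate dehydrogenase rose and 1 fell, with a median of 0.22. Mdh2 (malate dehydrogenase) rose by 0.48 ± 0.08 (SE, limma adjusted p = 0.000166), Suclg1 (a succinate-CoA ligase subunit) by 0.42 ± 0.07 (adjusted p = 0.000354) and Dld by 0.31 ± 0.07 (adjusted p = 0.00367), while Idh2 stood at -0.96 ± 0.33 (adjusted p = 0.0436). Of 51 assembly factors tested 11 rose and 0 fell (median 0.17), led by Higd1a at 0.58 ± 0.13 and Ecsit at 0.46 ± 0.11 (adjusted p = 0.00256 and 0.0041). Of 7 carriers and porins 4 rose, among them the adenine nucleotide carriers Slc25a5 at 0.55 ± 0.09 and Slc25a4 at 0.34 ± 0.09 (adjusted p = 0.000276 and 0.0115). Of 30 genes of mitochondrial gene expression and biogenesis 2 rose and 1 fell, Gabpb1, a subunit of NRF2, at -0.76 ± 0.24 (adjusted p = 0.0256). Of 18 genes of ubiquinone synthesis and other electron entry 1 rose and 1 fell, Coq8a at -0.82 ± 0.12 (adjusted p = 4.4e-05). Of 5 subunits outside the naming rule 1 rose, the ATPase inhibitor Atpif1 at 0.39 ± 0.10 (adjusted p = 0.00687), and 1 fell, Ndufab1 at -0.86 ± 0.27 (adjusted p = 0.0282). With length and GC trends removed, 3 TCA genes rose and 1 fell, 3 assembly factors rose and 1 fell, and 1 carrier rose. Of all 13586 genes, 1327 rose and 859 fell on that scale.

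The same lists were counted in the other comparisons. In KO spleen against saline BM 0 of 18 TCA genes, 0 of 51 assembly factors and 0 of 7 carriers passed, while Fastkd1 rose by 0.49 ± 0.13 (limma adjusted p = 0.0237) and Coq8a stood at -0.79 ± 0.13 (adjusted p = 0.000328). After G-CSF in marrow, Pdha1 (0.29 ± 0.09), Idh3a (0.32 ± 0.10), Slc25a5 (0.37 ± 0.10) and Pprc1 (0.43 ± 0.11) rose in WT, with adjusted p of 0.0362, 0.042, 0.0195 and 0.0109. In KO Dld (0.26 ± 0.08), Tbrg4 (0.40 ± 0.12) and Coq3 (0.46 ± 0.13) rose and Suclg2 stood at -0.42 ± 0.09, with adjusted p of 0.0329, 0.038, 0.0308 and 0.00298. Coq8a stood at -1.10 ± 0.13 in WT and -0.93 ± 0.13 in KO (adjusted p = 3.67e-06 and 3.64e-05). In WT spleen against G-CSF BM, 6 of 51 assembly factors rose and 1 fell, the same share as the 13.7% of all genes called there, and Cyc1 (-1.42 ± 0.44), Gabpb1 (-1.14 ± 0.26), Idh2 (-1.39 ± 0.36) and Slc25a3 (-0.88 ± 0.29) stood lower (adjusted p = 0.0361, 0.00639, 0.0141 and 0.046). No gene of these lists passed between KO and WT in any setting.

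The authors' deposited table holds 4 of these comparisons. In it 51 of 88 members were higher and 1 lower in WT spleen against saline BM at an adjusted p under 0.05. Over all genes 4708 of 13594 were called there, in either direction, and a split by direction was not counted. The authors' deposited table calls 4 members lower in KO than in WT spleen, Ndufa3, Cox6b1, Atp5j2 and Atp5k, among 302 of 13594 genes. For KO spleen against KO saline BM the authors' deposited table calls Cox4i2 alone of the members, among 1191 of 13594 genes. For KO against WT in saline BM it calls 0 members, among 1 of 13594 genes. Between WT groups the calls there are more numerous than those of the present fit. A like number of members, 50 higher and 1 lower, was reached when each library was weighted. That weighted fit called 2375 of all 13586 genes higher and 2308 lower.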

How the data were processed

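Gene expression was measured by RNA sequencing of 22 libraries of sorted HSCs in 6 groups, made from total RNA with a low-input SMARTer kit, per the labels' protocols. The authors deposited log2 values per gene and library. Each equals the log2 of the reads with 0.5 added, divided by an effective library size, in CPM, and 100% of the values of each library gave a whole number within 0.05, so the reads were recovered. The authors also deposited, for 4 comparisons, log2 fold changes, signed linear fold changes (a score, not used here), p-values and adjusted p-values. The submitters' processing notes list STAR 2.5.1a and bcl2fastq, Salmon 0.8.2, featureCounts 1.4.6-p5 of Subread, limma, edgeR and the build mm10, in no order, so the tool behind the counts is not given. Of 13645 lines for 13594 genes, 51 repeated another and were dropped. Depth was 22578088 to 31268856 reads per library, and 3 reads were worth 0.0918 to 0.139 CPM, for counting error only.

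Genes above 1 CPM in at least 3 libraries (13586, all 88 members) went into a limma model (R 4.3.3, limma 3.58.1) on the deposited log2 values, with 1 mean per group (16 residual degrees of freedom) and eBayes with an expression trend. Benjamini-Hochberg adjustment ran over all genes tested within each of 12 comparisons, and a gene was called at an adjusted p under 0.05. Fold changes carry that model's standard error (SE). Tables, exact permutation tests and figures used Python 3.11.15, pandas 2.3.3, NumPy 2.4.6, SciPy 1.17.1 and matplotlib 3.10.9. Positions and transcript lengths are from GENCODE M21 (GRCm38, mm10). The model was tested on simulated reads.

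Alternatives were no filter, no variance trend, library weights, the compared groups alone, scaling to the listed genes or by the median of ratios, 2 reads added, voom on the recovered reads, the replicate number as a block, and leaving out each library. The removal of trends with transcript length and GC content (splines per library) and the interaction of genotype with spleen after G-CSF were added after the data were seen. The counts of the 30 pairs of libraries within a group differed by more than sampling noise (chi-square per degree of freedom 20.7 to 87.1). Named are, per comparison, up to 8 members past the threshold by smallest p or otherwise the 2 of smallest p in each direction, the mitochondrial protein genes, the highest level per kb in each complex, isoform groups, and up to 4 genes per other list. Atp5b and Cox7b and the members left after removal of the length and GC trends were named after their values were seen. The NRF1 letters were shortened by 1 base after a first count with the longer form. The members and lists were chosen with earlier results of these data known.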

Additional observations from a re-analysis of the deposited data

Results flagged for a closer look

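In groups of 4 libraries, the gap of the highest or lowest library to its nearest neighbour was compared with the group's range, for 39 values (named members, mitochondrial protein genes, means by complex and isoform shares). Of 156 groups looked at 13 had a library far from the others, where chance gives about 1 in 20 for independent values. The values here share libraries and move together, so that rate cannot show whether 13 is an excess. Of the 13, 8 were in KO G-CSF BM and 3 rest on the KO spleen replicate 4.

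In KO G-CSF BM, replicate 1 was lowest for Cox6b1 (7.14 log2 CPM), Ndufa9 (7.95) and the mean of the nuclear complex I genes (6.54). Replicate 2 was highest for Ndufa7 (7.52), and replicate 3 was highest for the mean of the nuclear complex IV genes (5.83). Replicate 4 was highest for Ndufs8 (7.96) and Uqcrc2 (8.45) and lowest for the share of Cox4i2 in Cox4i1 and Cox4i2 RNA (2.49%).

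The KO spleen replicate 4 was lowest of its group for Cox7a1 (-0.28 log2 CPM), Ndufb11 (6.67) and Ndufs8 (7.60). The WT spleen replicate 2 was lowest for the Cox4i2 share (2.5%), and the WT spleen replicate 4 was highest for the share of Cox6b2 in Cox6b1 and Cox6b2 RNA (18.8%).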

How the results depend on the processing

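The number of members past the threshold stayed within 1.5 times its value under each alternative run, other than those given here. In WT spleen against saline BM (27 members) it was 51 with library weights, 9 when scaled to the listed genes, 7 with length and GC trends removed, and 10 to 29 with 1 library left out. In WT spleen against G-CSF BM (8) it was 4 without a variance trend, and 1 to 8 with 1 library left out. In WT BM after G-CSF against saline (1) it was 3 with library weights, 0 when scaled to the listed genes, 3 with length and GC trends removed, and 0 to 2 with 1 library left out. In KO spleen against saline BM (1) it was 2 without a variance trend, with library weights and when scaled to the listed genes, and 0 to 2 with 1 library left out. In KO against WT it was 4 in spleen with library weights, and 0 to 1 in G-CSF BM with 1 library left out. In KO spleen against G-CSF BM (0) it was 1 with the compared groups alone. Calls over all genes moved as well. In WT spleen against saline BM library weights gave 2375 of 13586 genes higher and 2308 lower. For values of named members in their own comparison, 895 of 958 alternatives kept direction and side of the threshold, 57 lost a call, 5 gained one and 1 reversed: Cox7a1 between KO and WT in saline BM, at 0.10 without the KO replicate 1 and -1.09 to 0.10 over the libraries left out. The cause was not tested.

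Whether the replicate numbers pair the libraries could not be settled from such small groups. Deviations of same-numbered libraries correlated at -0.0987 to 0.153, and no pair of groups had every value above 0.1. Each KO saline BM library correlated best with the KO G-CSF BM library of its own number (0.0762, 0.0507 and 0.141). No other pair of groups had this for every number. With the number as a replicate block the counts of members were 37 in WT spleen against saline BM, 5 against G-CSF BM, 0 in WT BM after G-CSF, 1 in KO spleen against G-CSF BM and 1 against saline BM, and 0 in the comparisons of KO with WT and the interactions. Groups of 3 or 4 libraries and small fold changes limit what can be called. Standard errors were largest for Cox5a, Cox7a1, mt-Tc and mt-Tp, each with a mean below 3 log2 CPM.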
